A study of Canis lupus familiaris with 21 samples.

Results

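The genes described here are those of the T cell receptor complex and its coreceptors, in samples of canine cutaneous histiocytoma (CCH). They were chosen by name, with no measured value in the rule, and comprise CD3E, CD3D, CD3G, CD247, LCK, ZAP70, CD2, CD5, CD8A and CD4, which makes 10 of the 21399 genes listed. Each of the 10 had a single entry.

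CCH is a skin tumor of Langerhans-like dendritic cells that arises mainly in young dogs and often regresses while lymphocytes infiltrate it. The RNA came from 21 formalin-fixed, paraffin-embedded (FFPE) samples of lesions of dogs of several breeds and both sexes, with no treatment given in the labels. The lesions were staged by the scheme of Cockerell and Slauson. Areas rich in tumor cells or in lymphocytes were used, and those of stage 2 were chosen under the microscope. Sample group 1 held tumor cell-rich areas of stage 1 (n = 5, 1 dog each, 0.5 to 5 years old where an age is given). Sample group 2a held tumor cell-rich areas of stage 2 (n = 5, 1 dog each, 0.6 to 3 years). Sample group 2b held lymphocyte-rich areas of stage 2 (n = 6), of which 4 samples were pools of several dogs and 2 came from 1 dog each, 17 dogs in all. Their ages were 0.3 to 6 years where the labels give one, and for the youngest of them the study's supplement gives a higher age. Sample group 3 held lymphocyte-rich areas of stage 3 (n = 5, 1 dog each, 1.5 to 9 years). Stage 1 is defined by the lack of a lymphocyte infiltrate, and a chosen area is enriched for a cell type but does not consist of it alone.

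The T cell receptor recognises a peptide on a major histocompatibility (MHC) molecule, but its own chains have almost no cytoplasmic tail, so that the signal is carried by the CD3 chains and by the zeta chain encoded by CD247. The kinase LCK, held at the coreceptors CD4 and CD8, phosphorylates these chains, and ZAP70 binds to the phosphorylated motifs and passes the signal on to adaptors such as LAT. CD4 binds MHC class II and marks helper T cells, whereas CD8 binds MHC class I and marks cytotoxic T cells. In dogs, neutrophils also carry CD4.

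The unit was the normalised read count, which is the number of reads counted on a gene in a sample divided by the size factor of that sample. Libraries were made with QuantSeq 3′, which reads near the 3′ end of a transcript, so that counts do not scale with transcript length but depend on how well the 3′ end is annotated. Between 2113393 and 3559404 reads per sample fell on genes, and 3 counts, taken as the smallest amount that the depth can show, corresponded to 2.36 to 3.51 normalised counts. DV200, the percentage of RNA fragments over 200 nt, lay between 64.5% and 71.2% in group 1 and between 70.5% and 76.9% in the other groups, as the labels give it. For replicate 5 of group 3 the study's supplement gives a higher DV200 than the label used here.

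CD3E, CD3D and CD3G encode the invariant CD3 chains, and they were low and highly variable in the tumor cell-rich areas and uniformly high in the lymphocyte-rich areas. The 3 genes are neighbours on chromosome 5 of the UU_Cfam_GSD_1.0 assembly, with CD3G at chr5:15403667-15416467, CD3D at chr5:15417998-15421934 and CD3E at chr5:15428916-15440314. In group 1, the normalised counts of CD3E were 2.83, 134.8, 394.4, 259.8 and 30.6 in replicates 1 to 5, and the lowest of these rested on 3 counts. In group 2a they were 99.3, 101.1, 103.3, 149.7 and 311.8. The samples of group 1 thus lay both below and above those of group 2a.

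In group 2b, CD3E ranged from 509.7 to 963.3 with a median of 569.6 (n = 6). In group 3 it was 1018.2, 669.7, 707.1, 853.3 and 808.5. Each of these samples lay above all 10 tumor cell-rich samples. The group means of CD3E were 164.5 ± 163.5 (SD, n = 5) in group 1, 153.0 ± 91.2 (n = 5) in group 2a, 627.1 ± 170.2 (n = 6) in group 2b and 811.4 ± 137.4 (n = 5) in group 3.

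CD3D and CD3G gave the same picture. CD3D ranged from 5.67 to 393.5 in group 1, from 78.9 to 267.3 in group 2a, from 509.7 to 671.2 in group 2b and from 500.9 to 826.3 in group 3. CD3G ranged from 3.78 to 316.1, from 80.0 to 291.5, from 424.8 to 694.9 and from 427.7 to 840.2 in the same order of groups. For both, the tumor cell-rich groups overlapped each other, as did the lymphocyte-rich groups, with a gap in between.

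CD247, at chr7:30828331-30902528, encodes the zeta chain. Its normalised counts were 8.50, 124.5, 299.7, 218.8 and 27.3 in group 1 and 52.0, 71.9, 101.1, 99.4 and 121.0 in group 2a. They ranged from 429.1 to 806.1 with a median of 541.9 in group 2b and were 663.5, 415.0, 668.3, 566.2 and 457.6 in group 3. With an SD of 27.1 around a mean of 89.1 in group 2a, CD247 was less spread there than CD3E, and 3 of the 5 samples of group 1 lay above every sample of group 2a.

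The 2 kinases were likewise higher in every lymphocyte-rich sample than in every tumor cell-rich sample. LCK, at chr2:68338870-68362999, was 5.67, 44.0, 185.8, 205.5 and 18.6 in group 1 and 52.9, 55.2, 80.0, 90.0 and 190.8 in group 2a. It ranged from 245.5 to 472.1 with a median of 387.4 in group 2b, and was 615.5, 518.8, 427.7, 676.0 and 448.2 in group 3. Of the samples of group 3, 3 of 5 exceeded the highest sample of group 2b.

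ZAP70, at chr10:45944828-45975965, was 1.89, 14, 102.0, 38.6 and 7.65 in group 1 and 26.9, 25.0, 18.9, 29.2 and 78.4 in group 2a. It ranged from 141.9 to 207.9 with a median of 183.4 in group 2b and was 134.9, 192.4, 130.0, 230.7 and 164.4 in group 3. Unlike LCK, it did not lie higher in group 3 than in group 2b, with means of 170.5 ± 42.0 and 178.8 ± 25.6.

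CD2, an adhesion receptor of T cells and natural killer (NK) cells, lies at chr17:54699355-54711821. It was 30.2, 95.5, 398.0, 280.2 and 48.1 in group 1 and 68.7, 166.7, 126.6, 108.8 and 317.6 in group 2a. In group 2b it ranged from 481.4 to 710.8 with a median of 549.5, and in group 3 it was 741.4, 833.8, 524.7, 1023.6 and 745.6, with 4 of 5 samples above every sample of group 2b. Among the 8 genes with well over 3 counts in most samples, CD2 was the one whose lowest sample, at 32 counts, was farthest from that limit.

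CD5, at chr18:55824104-55844496, encodes a surface glycoprotein that restrains signalling from the receptor. It was 0, 27.1, 45.5, 41.7 and 12 in group 1, 11.1, 43.8, 43.3, 22.2 and 22.3 in group 2a, and 270.8, 160.4, 188.2, 208.5 and 122.5 in group 3. In group 2b it ranged from 103.5 to 235.5 with a median of 154.7. The tumor cell-rich groups overlapped, as did the lymphocyte-rich groups, and no tumor cell-rich sample reached the lowest lymphocyte-rich one.

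**Figure D1:**
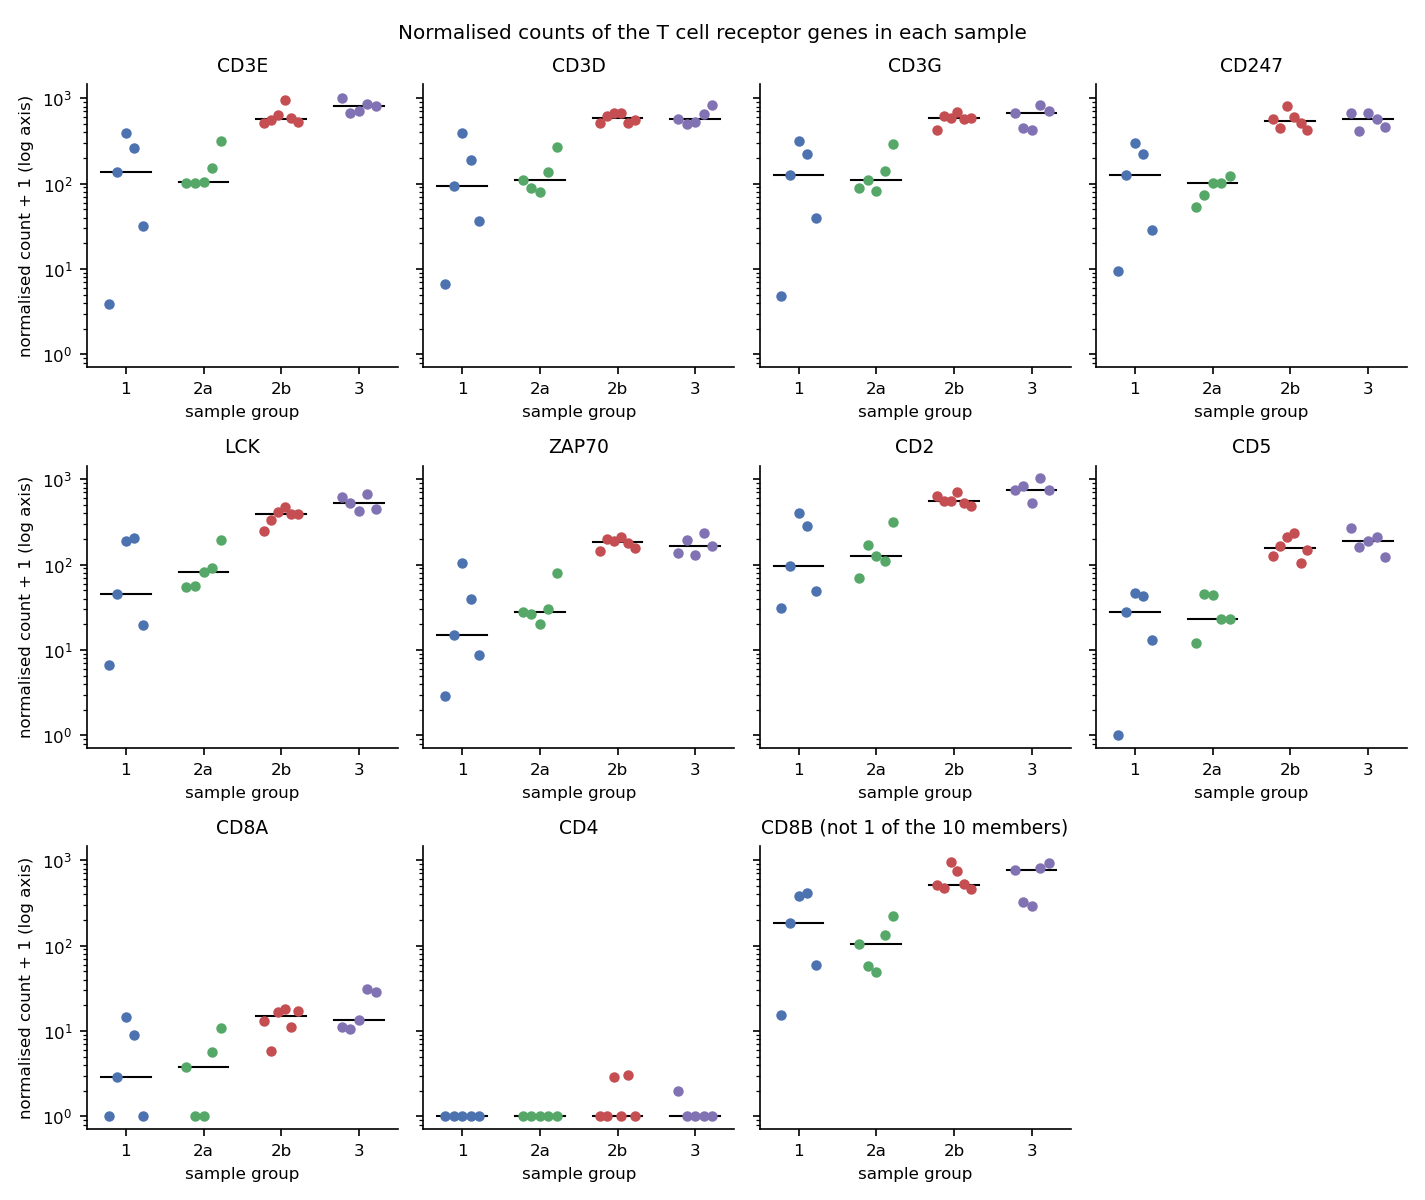
Normalised counts plus 1 (log axis) of the 10 genes and of CD8B in the samples of groups 1, 2a, 2b and 3. Points are samples and black lines are group medians. For CD3E, CD3D, CD3G, CD247, LCK, ZAP70, CD2 and CD5 every lymphocyte-rich sample lies above every tumor cell-rich sample, with CD3E at 509.7 or more against 394.4 or less, while CD4 stays at or near 0 throughout.

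For 8 of the 10 genes, then, the 11 lymphocyte-rich samples did not overlap with the 10 tumor cell-rich samples, where 1.43% of the 12505 genes considered did so in this direction. CD8A and CD4 were the exceptions. The areas had been chosen for their lymphocytes, so that the direction follows from the choice, and the values give its size. In bulk RNA, fewer T cells and less of a transcript per T cell cannot be told apart.

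The coreceptor genes stood apart from the other members by their low counts. CD4, at chr27:7845022-7891631, had 5 counts in all 21 samples together. It was at 0 in each of the 10 tumor cell-rich samples, which allows up to 3 counts per sample. It reached 1.86 and 2.01 in 2 samples of group 2b and 0.999 in 1 sample of group 3, and was at 0 in the others. No sample exceeded 3 counts, so that CD4 was not detectable above the limit at this depth, in groups where CD3E had 546 counts or more in every sample of group 2b and 710 or more in every sample of group 3.

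CD8A, at chr17:38679136-38683623, had 213 counts in all. Its normalised counts were 0, 1.87, 13.7, 7.87 and 0 in group 1 and 2.78, 0, 0, 4.68 and 9.68 in group 2a. They ranged from 4.79 to 17.0 with a median of 14 in group 2b, and were 9.99, 9.43, 12.6, 30.2 and 27.2 in group 3. The tumor cell-rich and lymphocyte-rich areas overlapped. CD8B, which encodes the other chain of the CD8 heterodimer and is no member of the set, lies beside CD8A at chr17:38626364-38641576. It had 8697 counts, which is 40.8 for each count of CD8A, and this number was between 32.4 and 47.9 in each of the 4 groups.

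CD8B was at 14.2, 184.4, 383.5, 413.3 and 59.0 in group 1 and at 102.1, 57.3, 47.8, 132.1 and 221.8 in group 2a. It ranged from 462.8 to 955.1 in group 2b and was 766.4, 324.5, 288.1, 820.1 and 924.7 in group 3. The lowest sample of group 3 thus lay below the 2 highest samples of group 1. In the annotation, the whole span of CD8A lies within a long non-coding RNA, LOC111090626, which had a mean of 1.9 counts per sample. CD4 overlaps LOC102153812, with a mean of 2.1 counts, over 476 bases and the long non-coding RNA LOC111092740 over 5744 bases. How reads on overlapping genes or on either strand were assigned is not given in the sources used here, and the part of this in the low counts was not tested.

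Whether the tumor cell-rich areas of stage 2 differ from those of stage 1 was asked by comparing group 2a with group 1. None of the 8 genes that could be tested was a differentially expressed gene (DEG), which needed an absolute log2 fold change of 1 or more and an adjusted p no higher than 0.05 in edgeR's quasi-likelihood test with Benjamini-Hochberg adjustment over all genes tested. Over all 11200 genes tested, 0.393% were DEGs. The log2 fold changes lay between −0.60 for CD247 (SE 0.67, adjusted p = 0.692) and 0.17 for CD5 (SE 0.72, adjusted p = 0.932), with a median of −0.022 against −0.015 over all genes tested. None of the 8 had an unadjusted p under 0.05, which 17.9% of all genes tested had, and DESeq2 also made 0 of them DEGs. CD4 and CD8A did not pass the filter of 10 counts in 5 samples.

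These standard errors, 0.63 to 0.79 on the log2 scale, came with the spread within group 1, so that even changes of 1 log2 unit would lie within 2 standard errors. The signs were not stable. CD3E changed from −0.10 to 0.52 when replicate 3 of group 1 was left out and to −0.54 when replicate 5 of group 2a was left out. The keratinocyte marker genes had a median log2 fold change of −2.004 in the same comparison, with 0 of 12 DEGs, and their part in the values of the T cell genes was not tested.

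The lymphocyte-rich and tumor cell-rich areas of stage 2 were set side by side in groups 2b and 2a. By the study's supplement the 2 groups came from different dogs, and only group 2b held pools. Area thus cannot be told apart from dog or pooling. Of the 9 genes tested, 8 were DEGs with higher values in group 2b, where 5.98% of the 11545 genes tested were DEGs in this direction. CD247 had the largest log2 fold change of them, 2.65 (SE 0.24, adjusted p = 1.5e-05 in edgeR), which is 6.29-fold. CD5 followed with 2.52 (SE 0.33), ZAP70 with 2.30 (SE 0.31), CD3D with 2.11 (SE 0.28), CD3E with 2.03 (SE 0.31), CD3G with 2.02 (SE 0.30), LCK with 1.98 (SE 0.31) and CD2 with 1.85 (SE 0.31). Each step between neighbours in this order was smaller than their standard errors.

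CD8A had a log2 fold change of 1.82 (SE 0.69) and was not a DEG in edgeR (adjusted p = 0.0876), although 5 of 6 samples of group 2b exceeded every sample of group 2a. It became a DEG with DESeq2 (adjusted p = 0.0378) and when replicate 5 of group 2a was left out (log2 fold change 2.70, adjusted p = 0.0216 in edgeR). For the 8 DEGs, each sample of group 2b lay above each sample of group 2a, which held for 6.07% of all genes tested. With the 4 pooled samples left out of group 2b, which leaves 2 samples, CD247, CD3D and CD5 were still DEGs, and the log2 fold changes of the 8 genes lay between 1.64 and 2.53. In this setting 79 of the 10565 genes tested were DEGs with higher values.

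Whether the infiltrate changes from stage 2 to stage 3 was asked by comparing group 3 with group 2b. None of the 9 genes tested was a DEG, where 0.0428% of the 11685 genes tested were, and DESeq2 also made 0 of the 9 DEGs. LCK had the largest log2 fold change, 0.52 (SE 0.17, adjusted p = 0.231 in edgeR), followed by CD8A with 0.49 (SE 0.45), CD2 with 0.43 (SE 0.16, adjusted p = 0.279) and CD3E with 0.37 (SE 0.17, adjusted p = 0.384). Before adjustment, LCK and CD2 had a p under 0.05, as did 7.03% of the genes tested in this direction.

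CD3D, CD3G, CD247 and ZAP70 had log2 fold changes between −0.07 and 0.09 with standard errors of 0.15 to 0.18, and CD5 had 0.21 (SE 0.23). The median of the 9 genes was 0.208, against 0.006 over all genes tested. Of the 9 genes, 7 lay above 0, as did 50.6% of all genes tested. LCK, CD2, CD3E, CD8A and CD5 stayed above 0 under each of the alternative settings and with each sample left out in turn.

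**Figure D2:**
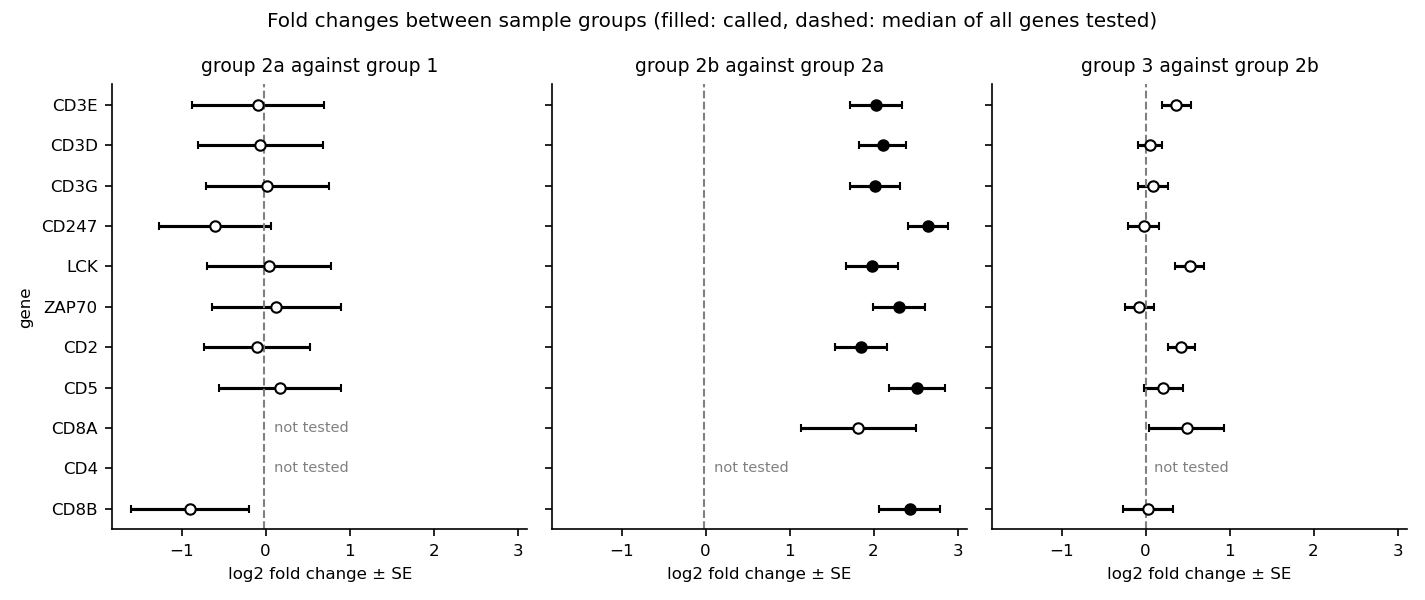
Log2 fold changes with standard errors (horizontal axis) of the 10 genes and CD8B in 3 comparisons of sample groups. Filled points are DEGs, open points are not, and dashed lines are the median of all genes tested. In group 2b against group 2a, 8 of the 10 genes are DEGs between 1.85 and 2.65, and in the other comparisons none is.

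Among the samples of group 1, the 8 genes shared their lowest sample and mostly their highest. In this group, replicate 1 was the lowest for 8 of 8 genes and replicate 3 the highest for 7 of 8, with LCK highest in replicate 4. Summed over the 10 genes, the normalised counts of group 1 were 58.6, 661.8, 2148.6, 1459.5 and 217.4, and the highest of them stayed below the lymphocyte-rich samples, whose lowest sum was 3169.4. Replicate 1 was not the shallowest library of its group, with 2694700 counts and a DV200 of 68.9%. Replicate 3 had 2846861 counts and the highest DV200 of the group, 71.2%. The part of RNA quality in this order was not tested.

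In group 2a, replicate 5 was the highest for 7 of 8 genes and had a sum of 1610.4, against 511.2 to 780.0 in the other samples of this group. In group 2b, replicate 4, a pool of 4 dogs, was the highest for 6 of 8 genes with a sum of 4576.8. In group 3 the highest sample differed more between genes, and the sums ran from 3613.1 to 5082.6.

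**Figure D3:**
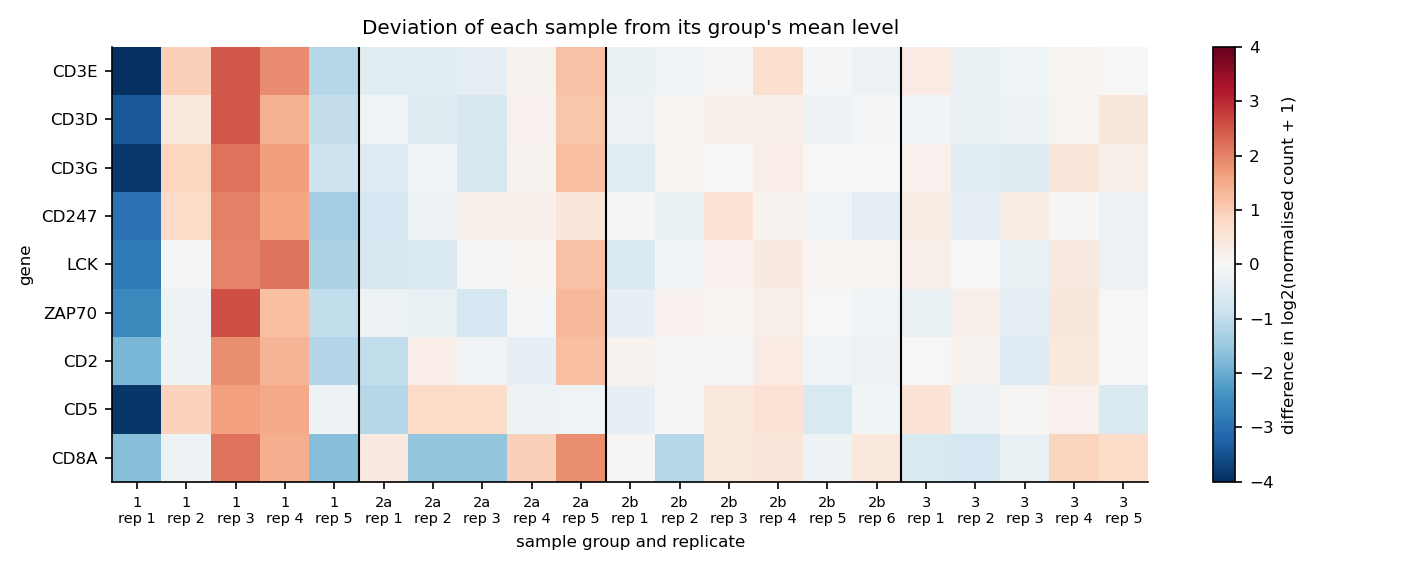
Difference of each sample from the mean of its group in log2(normalised count + 1), for 9 of the 10 genes (rows) in the 21 samples (columns, by group and replicate). Red is above and blue below the group mean. In group 1, replicate 1 is below the mean and replicates 3 and 4 are above it for all 9 genes, and group 2a replicate 5 is above it for 8 of the 9, all but CD5.

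Taking such deviations from the group mean over the 21 samples, Pearson's r with the mean of CD3D, CD3E and CD3G was 0.945 for LCK, 0.940 for ZAP70, 0.938 for CD247, 0.876 for CD2, 0.846 for CD5 and 0.750 for CD8A. CD8B had an r of 0.932. Outside the 10 members, the most alike of the 12483 genes considered were LOC607937 (0.979), LOC480788 (0.971), CD27 (0.959), GPRIN3 (0.957) and LOC475935 (0.950). LOC480600, LOC106557461, the long non-coding RNA LOC119876202, CCL5 and NKG7 followed, with 0.942, 0.941, 0.940, 0.938 and 0.934.

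CD27 encodes a costimulatory receptor of T cells, CCL5 a chemokine that T and NK cells release, and NKG7 a protein of cytotoxic granules. LOC480788 is annotated as a constant-region segment on chromosome 16. All these values share the libraries. Over the 16 samples of groups 2a, 2b and 3, the r of these 10 genes was 0.531 for LOC475935 and 0.792 to 0.876 for the other 9. Over the same samples it was 0.864 for ZAP70, 0.848 for LCK, 0.835 for CD8B, 0.745 for CD8A, 0.689 for CD2, 0.454 for CD247 and −0.021 for CD5. The likeness of CD247 and CD5 to CD3 thus depended on group 1.

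Ratios within a sample do not depend on the scaling of that sample, except at low counts, where the 1 added to each value matters. On the scale of log2 of the ratio to CD3E, with 1 added to each normalised count, LCK lay at −0.58 ± 0.90 (SD, n = 5), −0.71 ± 0.21 (n = 5), −0.74 ± 0.25 (n = 6) and −0.60 ± 0.23 (n = 5) in groups 1, 2a, 2b and 3. CD247 lay at 0.08 ± 0.70, −0.68 ± 0.50, −0.15 ± 0.37 and −0.56 ± 0.28. These ratios overlapped between all groups. The highest sample for both was replicate 1 of group 1, where CD3E had 3 counts.

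For the coreceptors, 3 ratios were compared in 3 comparisons, and 0 of these 9 tests passed at an adjusted p of 0.05 in 2-sided exact permutation tests. The log2 ratio of CD8A to CD3E averaged −4.42 ± 1.42 (SD) for group 1, −5.54 ± 1.05 for group 2a, −5.58 ± 0.58 for group 2b and −5.57 ± 0.76 for group 3. Group 3 differed from group 2b by 0.01 (exact permutation p = 0.989, adjusted p = 0.989). The ratios with CD4 carry little information, since CD4 was at 0 in most samples, and they follow CD3E or CD8A. For the log2 ratio of CD4 to CD3E, group 2b minus group 2a was −1.63 (exact permutation p = 0.0152, adjusted p = 0.136).

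With CD8B in place of CD8A, chosen after the low counts of CD8A had been seen, the log2 ratio to CD3E averaged 0.80 ± 0.75 for group 1, −0.51 ± 0.46 for group 2a, −0.06 ± 0.35 for group 2b and −0.52 ± 0.63 for group 3. The difference between groups 2a and 1 was −1.30 (exact permutation p = 0.0159), which did not pass with an adjusted p of 0.0952 over the 6 tests of this kind. The adjusted p was 0.0476 without group 1 replicate 3 and with a pseudocount of 5 (exact permutation). The difference did not pass with any other sample left out, 9 of 10 runs, nor in 2 of 3 other alternatives. The adjusted p then reached 0.143 and 0.188 (exact permutation). The highest ratio of group 1, 1.98, was that of replicate 1, where CD3E had 3 counts, and without this sample the difference was −1.01. The smallest p these tests allow is 0.00794 with 5 samples against 5 and 0.00216 with 6 against 5. In the log2 ratio of CD8A to CD8B, the groups lay between −5.53 and −5.04, and none of the 3 comparisons had an exact permutation p under 0.2.

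**Figure D4:**
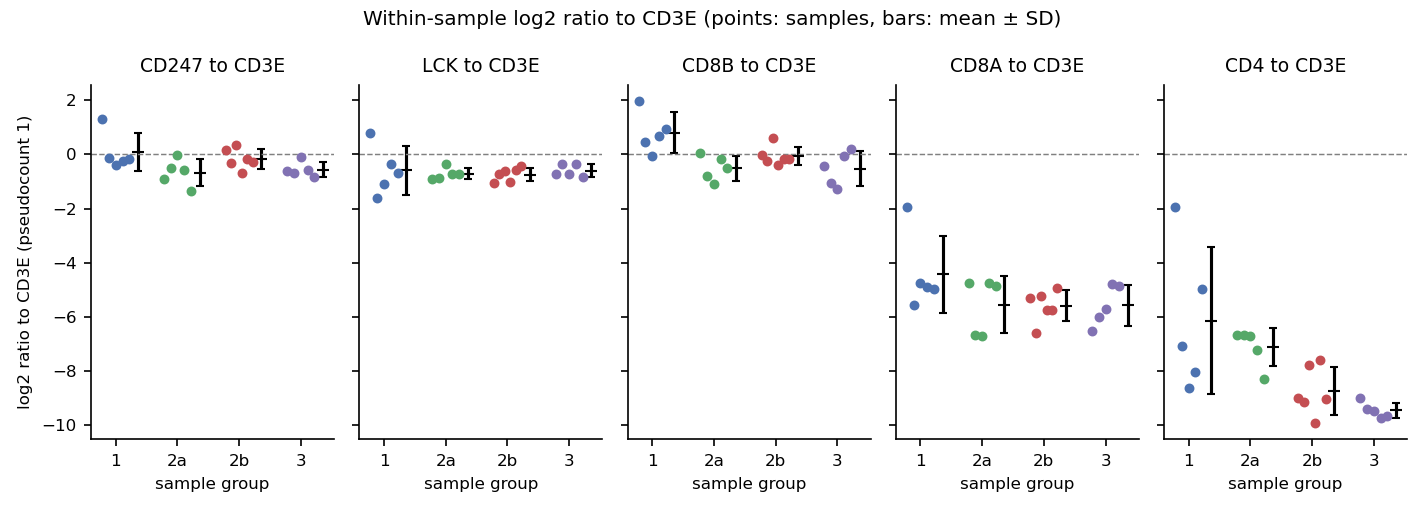
Log2 ratios to CD3E within each sample (vertical axis, 1 added to each normalised count) for CD247, LCK, CD8B, CD8A and CD4 by sample group. Points are samples and bars the mean ± SD of a group. LCK stays between −0.74 and −0.58 on average in the 4 groups, CD8A lies between −5.58 and −5.54 in groups 2a, 2b and 3, and CD4 moves with CD3E alone because its own count is near 0.

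The genes around the receptor were followed in 4 lists. Of 18 tested genes that carry the signal onwards from the receptor, 13 were higher and 0 lower as DEGs in group 2b than in group 2a, with a median log2 fold change of 1.34. Of all 11545 genes tested in this comparison, 5.98% were DEGs with higher values, a share to be set beside the counts of each list. TRAT1, an adaptor that associates with the receptor, had a mean of 45.1 normalised counts in group 2b against 1.94 in group 2a (log2 fold change 4.49, SE 0.63), the latter from 3 counts or fewer per sample. TXK, a kinase of the TEC family, had 55.2 against 6.06 (3.13, SE 0.48). LAT, the adaptor that ZAP70 phosphorylates, had 306.3 against 55.8 (2.45, SE 0.31), and SKAP1, an adaptor that links the receptor to integrins, 134.6 against 31.3 (2.09, SE 0.29). All 4 had an adjusted p of 0.00069 or lower in edgeR.

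Of 16 genes in a list named for restraint of the signal, 3 were DEGs with higher values in group 2b and 0 with lower ones. The median log2 fold change was 0.525, with 12 genes above 0. DOK2 (−0.94) and PTPN6 (−0.54) were lower in group 2b and missed only the fold threshold, with adjusted p values of 0.00248 and 0.0494 in edgeR. SLA2 (0.97) and SIT1 (0.73) were higher and missed only this threshold too, with 0.0242 and 0.0412. Whether each gene of this list restrains the signal here was not tested. UBASH3A, a phosphatase-like suppressor of receptor signalling, had a log2 fold change of 2.59 (SE 0.49). DGKZ, which removes diacylglycerol, had 1.19 (SE 0.20), and the phosphatase gene PTPN22 had 1.10 (SE 0.27). PTPN22 stayed just under the fold threshold without replicate 4 of group 2b, at 0.98, and without replicate 2 of group 2a, at 0.999. Without replicate 5 of group 2a, 5 genes of this list were DEGs. PTPRC, which encodes CD45 and is carried by all leukocytes, had 2004.1 normalised counts in group 2a and 2594.5 in group 2b and was no DEG.

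Of 10 tested transcription factors of the T lineage, 4 were DEGs with higher values in group 2b and 0 with lower ones. TCF7, a factor of naive and memory T cells, had a log2 fold change of 3.32 (SE 0.29), EOMES, a factor of cytotoxic and memory T cells, of 3.25 (SE 0.45), IKZF3, a lymphocyte factor, of 2.96 (SE 0.22) and ETS1 of 1.84 (SE 0.25). GATA3 and RUNX3, by contrast, had lower means in group 2b (254.2 against 438.7 and 534.7 against 816.4 normalised counts). Their log2 fold changes of −0.79 and −0.61 had adjusted p values of 0.00891 and 0.0043 in edgeR and missed only the fold threshold. PTPRC, these 2 genes and, in the other lists, the genes said to miss only the fold threshold were picked out after their values had been seen. BCL11B had 3 counts or fewer in every sample.

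Of 12 further surface genes tested, 10 were DEGs with higher values and 0 with lower ones, and 11 had a log2 fold change above 0. IL7R, lower in group 2b at −0.81 (adjusted p = 0.025 in edgeR), and CD48, higher at 0.48 (0.0336), missed only the fold threshold. CD8B had a log2 fold change of 2.43 (SE 0.36), CD6, a relative of CD5, of 2.36 (SE 0.39), the early activation gene CD69 of 2.18 (SE 0.24) and CD96, a receptor of T and NK cells, of 2.05 (SE 0.37). IL2RG had 3 counts or fewer in every sample of groups 1 and 2a, and CXCR3 in every sample of all 4 groups. With the pooled samples left out of group 2b, 2, 0, 2 and 1 genes of the 4 lists were DEGs with higher values, where 79 of all 10565 genes tested were.

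Between stages, 1 gene of these lists was a DEG in either comparison. In group 3 against group 2b, 0 genes of the 4 lists were DEGs in edgeR, and their medians lay between 0.068 and 0.165. In group 2a against group 1, PTPN2, a phosphatase gene, was the single DEG, at 103.6 against 43.2 normalised counts (log2 fold change 1.27, SE 0.21, adjusted p = 0.0334 in edgeR). This call was lost when any of 7 of the 10 samples was left out, namely replicates 2, 3 and 5 of group 1 and replicates 2, 3, 4 and 5 of group 2a, with adjusted p values up to 0.0952 in edgeR.

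**Figure D5:**
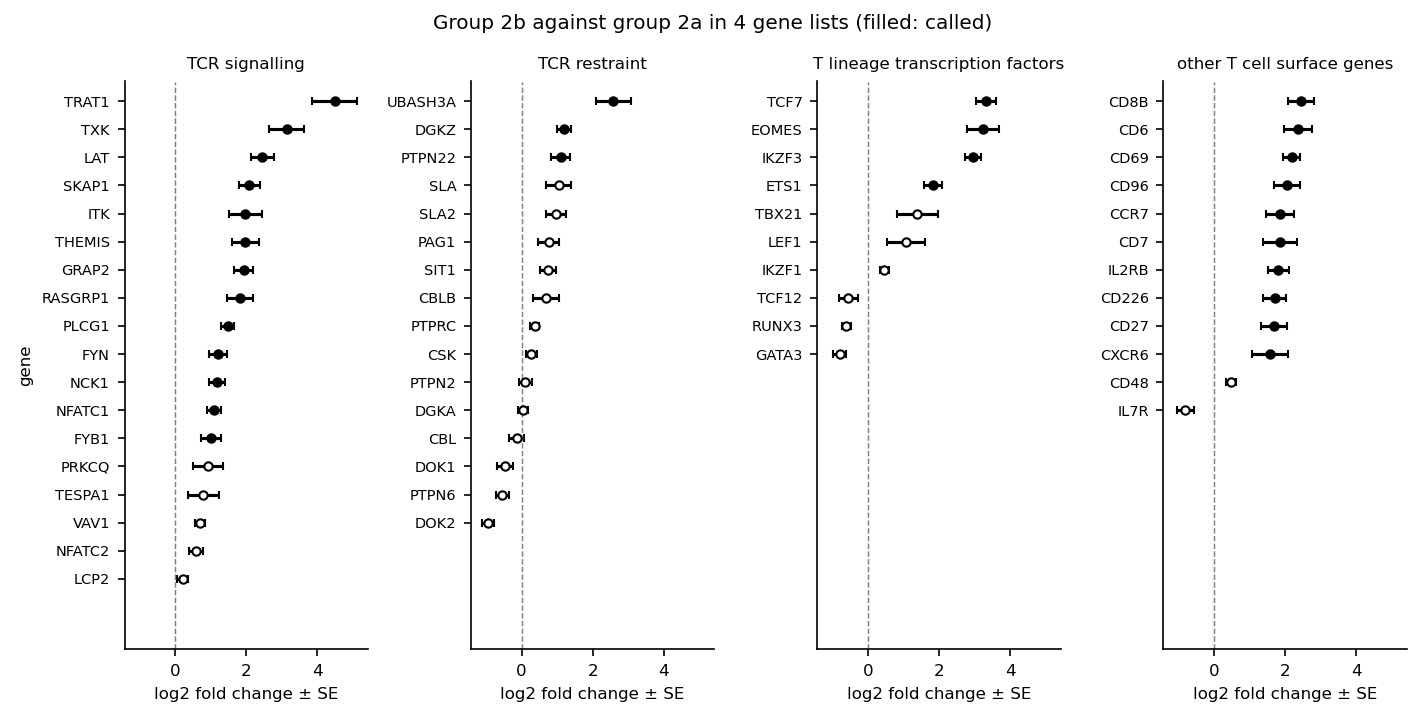
Log2 fold changes with standard errors (horizontal axis) in group 2b against group 2a for the tested genes of 4 lists around the T cell receptor. Filled points are DEGs and open points are not. Of the tested genes, 13 of 18, 3 of 16, 4 of 10 and 10 of 12 are DEGs, and these lie to the right of 0.

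Markers of other cells moved along in part of the comparisons. For B and plasma cells, 6 of 11 tested markers were DEGs with higher values in group 2b than in group 2a, and the summed normalised counts were 644.6 to 942.3 in group 1, 638.8 to 1567.4 in group 2a, 1659.3 to 2564.4 in group 2b and 555.0 to 2561.6 in group 3. MS4A1, which encodes CD20, had 3 counts or fewer in every sample of groups 1 and 2a. Group 3 against group 2b gave a median log2 fold change of −1.26 for 10 of these markers, with 0 DEGs, while the 9 receptor genes had a median of 0.208.

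For cytotoxic and NK cells, 4 of 8 tested markers were higher and 1, TYROBP, was lower in group 2b than in group 2a, and the sums were 3335.7 to 6154.4, 3411.5 to 4849.5, 5916.5 to 8492.7 and 5875.0 to 9478.7 in groups 1, 2a, 2b and 3. GZMK, a granzyme gene, had means of 476.6 in group 2a and 3687.0 in group 2b. TYROBP, an adaptor gene also used by myeloid cells, made up much of these sums, with means of 3522.2, 3050.8, 1411.4 and 1991.5 in groups 1, 2a, 2b and 3. TYROBP, the 1 marker that was lower, was then left out, a choice made with the sums already known. The sums of the 12 other markers ran from 190.9 to 2727.9, 457.7 to 2569.2, 4428.5 to 7224.6 and 3303.7 to 7916.9, in that order. Without TYROBP the lymphocyte-rich and tumor cell-rich samples did not overlap, whereas with it they did. GZMK made up much of the remaining sum in group 2b, which had a median of 5100.6. GZMA, by contrast, was no DEG, with means of 226.9 in group 2a and 248.4 in group 2b (adjusted p = 0.908 in edgeR). NCR1, which encodes the NK receptor NKp46, had 3 counts or fewer in every sample. NK cells also carry CD2, CD247, LCK and ZAP70, and their part in these values was not tested.

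Histiocyte and Langerhans cell markers summed to 4562.4 to 8006.6 in group 2a and 4273.7 to 5921.5 in group 2b, with 0 of 10 DEGs in each of the 3 comparisons, and in groups 1 and 3 they summed to 5512.1 to 6894.3 and 5129.4 to 6152.4. Macrophage and neutrophil markers summed to 3229.7 to 17332.6, 2121.3 to 9304.6, 4613.6 to 8866.2 and 5669.4 to 13628.1 in groups 1, 2a, 2b and 3, with 2 of 11 higher and 1 lower in group 2b than in group 2a. Keratinocyte markers summed to 1058.7 to 14125.5, 309.9 to 3512.7, 238.7 to 2319.2 and 746.9 to 7452.6, and they gave 0 DEGs in the 3 comparisons, with medians of −0.883 in group 2b against 2a and 1.70 in group 3 against 2b. Fibroblast markers gave 0 DEGs, with sums of 5936.7 to 49885.9, 9610.8 to 24830.2, 9501.8 to 16524.0 and 9061.7 to 30258.9. Endothelial markers gave 1 DEG, higher in group 2b than in group 2a, and summed to 473.6 to 894.3, 533.2 to 1064.2, 515.2 to 1017.6 and 554.0 to 1245.1.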

How the data were processed

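QuantSeq 3′ libraries of FFPE total RNA were trimmed, filtered, aligned to UU_Cfam_GSD_1.0 and counted by the authors, and the submitters' processing notes name cutadapt, STAR, featureCounts and DESeq2, with counting settings not given in the sources used here. The deposited tables hold raw read counts, identical in both, and a signal, the normalised count, which equals the count divided by 1 size factor per sample (0.855 to 1.27). The deposited log2 fold changes, p-values and adjusted p-values of the authors were not used. Names carry a numbered ending, 3 for each member, which was removed.

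Groups came from the sample titles. The raw counts were tested in edgeR 4.0.16 (under R 4.3.3) by its quasi-likelihood test after TMM scaling, with Benjamini-Hochberg adjustment over genes with at least 10 counts in at least 5 samples of the 2 groups compared. DESeq2 1.42.0, the deposited size factors, no filter, all 4 groups in 1 fit, DV200 as a covariate, a replicate block, no fold threshold, leaving out the pooled samples and leaving out each sample were the alternatives. Ratios were tested by 2-sided exact permutation on log2(normalised count + 1) with numpy 2.4.6 (Python 3.11.15), tables were joined with pandas 2.3.3 and plots were drawn with matplotlib 3.10.9. CD8B ratios and the marker sum without TYROBP were added after the values had been seen. Simulated counts were also tested in edgeR, where a gene was found by its adjusted p alone, without the fold threshold of a DEG. With 200 genes changed 4-fold, edgeR found 153 for group 2a against 1, 186 for 2b against 2a and 179 for 3 against 2b. Of 200 changed 2-fold it found 2, 61 and 67. False finds numbered 13, 7 and 7 at 4-fold and 1, 5 and 3 at 2-fold, in the same order. A 2-fold change lies at the fold threshold, so the 2-fold numbers do not give how many would be DEGs. The changed genes were drawn at random from all genes tested, each with its own spread. The numbers therefore do not give how often such a change would be found in the members.

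The members and the gene lists were chosen with earlier results of these data known. Named from each list were DEGs between stages and up to 4 DEGs with the largest fold change between areas, besides the 2 most abundant of other cell types where a result turned on them. The most alike genes are the 10 with the highest r. The limit of 3 counts covers counting error only, whereas the standard errors from edgeR include the spread between samples. The highest share of genes with identical counts in any 2 libraries was 2.7%, so that none was counted as a repeat. Within groups 1, 2a and 3, each sample is another dog.

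Same-numbered samples of 2 groups had correlations of their deviations from the group means between −0.304 and 0.149, not above 0.1 in every case, so that the numbers name samples and do not pair them. Positions come from RefSeq on the same assembly, to which 21399 genes matched. TRAC and TRDC were not analysed here, and 2 further genes of the lists are not reported here and were left out of their counts.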

Additional observations from a re-analysis of the deposited data

Results flagged for a closer look

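In 40 sets, each of 1 gene in 1 group, the highest and lowest samples were compared with the others by Dixon's ratio at its 95% critical value, and 5 stood out. Chance flags about 1 in 20 groups, and the genes move together, so that these are not separate events. In group 2a, replicate 5 lay far above the other 4 samples for CD3E (311.8 normalised counts, the next 149.7), CD3G (291.5, the next 139.2), LCK (190.8, the next 90.0) and ZAP70 (78.4, the next 29.2). In group 2b, replicate 4, a pool of 4 dogs, lay far above the others for CD3E (963.3, the next 628.3).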

How the results depend on the processing

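Of 451 fold changes of the members under alternatives, 394 kept their direction and their side of the threshold, 50 changed sign, all in the comparisons between stages where no member was a DEG, 5 lost the call and 2 gained it. The number of members called stayed at 0 between stages and at 8 or 9 between groups 2b and 2a, except that 3 were called without the pooled samples. CD3E, CD3G, LCK, ZAP70 and CD2 then had adjusted p values of 0.0583 to 0.11 in edgeR. The causes were not tested, beyond the loss of samples where samples were left out.

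Over all genes, group 2a against group 1 gave 262 DEGs with DESeq2, 184 with all 4 groups in 1 fit, 0 with DV200 as a covariate (976 at an unadjusted p under 0.05), and 0 to 78 with 1 sample left out (0 without group 1 replicate 2, among others, and 78 without group 1 replicate 4). Group 3 against group 2b gave 44 with DESeq2, 3 with no filter, 2 with all 4 groups, 2 with DV200, 0 without the pooled samples (485 at an unadjusted p under 0.05), 13 with no fold threshold, and 0 to 50 with 1 sample left out (0 without group 2b replicate 2, among others, and 50 without group 3 replicate 3). Group 2b against group 2a gave 111 without the pooled samples and 1909 with no fold threshold.

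The replicate block, in which samples share only a number, gave 0 DEGs for group 2a against group 1 (1644 at an unadjusted p under 0.05), 1 for group 3 against group 2b and 934 for group 2b against group 2a, with 0, 0 and 8 members called. It turned the sign in group 2a against group 1 for CD3E (0.60), CD3D (0.64), CD247 (0.052) and CD2 (0.29). Of 10 samples in each comparison, 1, 2 and 3 correlated best with their own number, in the order given.

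DV200 as a covariate turned the sign in group 2a against group 1 for CD3G (−0.69), LCK (−0.99), ZAP70 (−0.91) and CD5 (−0.13), and in group 3 against group 2b for CD3D (−0.064), CD3G (−0.16) and CD247 (0.10). CD247 in the latter was 0.12 without the pooled samples. With 1 sample left out, group 2a against group 1 ranged from −0.54 to 0.52 for CD3E, −0.47 to 0.77 for CD3D, −0.43 to 0.55 for CD3G, −0.40 to 0.57 for LCK, −0.39 to 1.19 for ZAP70, −0.53 to 0.48 for CD2 and −0.12 to 0.49 for CD5. Group 3 against group 2b ranged from −0.10 to 0.11 for CD247, −0.074 to 0.12 for CD3D, −0.044 to 0.20 for CD3G and −0.20 to 0.016 for ZAP70.

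For the ratio of CD8A to CD3E, group 2b against group 2a was 0.37 with a pseudocount of 0.5 and −0.98 with 5 (exact permutation, adjusted p = 0.0195), so that its sign rests on the pseudocount, and −0.33 to 0.16 with 1 sample left out. Group 3 against group 2b was −0.069 with a pseudocount of 5, −0.20 for medians and −0.19 to 0.25 with 1 sample left out. Group 2a against group 1 was 0.006 for medians. CD4 to CD3E was −1.96 in group 2b against group 2a with a pseudocount of 5 (adjusted p = 0.0195), and in group 2a against group 1 it was 0.38 for medians and −1.60 to 0.07 with 1 sample left out. CD8A to CD4 in group 2a against group 1 was 0.40 for medians and −0.60 to 0.40 with 1 sample left out. With a pseudocount of 5, CD8B to CD3E was −1.12 in group 2a against group 1 (adjusted p = 0.0476), and −1.51 to −1.01 with 1 sample left out. CD8A to CD8B was −1.40 in group 2b against group 2a with a pseudocount of 5 (adjusted p = 0.026), and −0.013 to 0.51 in group 2a against group 1 with 1 sample left out.

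CD8A and CD4 rest on 213 and 5 counts, and the cause of their low counts was not tested. PTPN2 also lost its call with DV200 (adjusted p = 0.474 in edgeR) and the replicate block (0.134), at log2 fold changes of 1.20 and 1.28.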

Other observations

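Constant-region segments in the annotation, 19 entries with counts in the table, were looked up after LOC480788 had been seen among the genes most like CD3, and the 3 with the highest r were chosen for description. On chromosome 16, LOC480788 had median normalised counts of 238.7, 301.0, 1280.2 and 2304.4 in groups 1, 2a, 2b and 3, and its neighbour LOC609053 had 95.6, 95.5, 478.3 and 495.3. On chromosome 8, the entry LOC106557516 had medians of 49.6, 39.9, 884.0 and 253.7, and so was lower in group 3 than in group 2b, unlike the other 2. The deviations from the group means had an r with those of CD3 of 0.971, 0.837 and 0.794 for these 3 entries over 21 samples, and of −0.141 to 0.781 for the other 16 entries. The highest of these 16, LOC119864163 on chromosome 18, had medians of 8.66, 6.49, 45.1 and 82.6. Which chain each entry encodes was not determined here, so that an entry with a high r need not belong to the T cell receptor.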
